A study of Homo sapiens with 4 samples.

Results

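MicroRNA host genes are long transcripts that carry microRNA hairpins in their exons or introns. The members described here are the gene rows whose Ensembl ID maps to a symbol that starts with MIR and ends with HG, 80 of the 43714 genes counted. GENCODE 29 or RefSeq places at least 1 microRNA hairpin on the transcribed strand of 77 of them, 125 hairpins in all, of which 80 lie in introns, 38 in exons and 6 across an exon boundary. The libraries come from MDA-MB-231, a triple-negative breast cancer line of mesenchymal type, carrying the 7TGP reporter, in which 7 binding sites for TCF, the transcription factor partner of beta-catenin, drive enhanced green fluorescent protein (EGFP). The reporter-positive line (MDA-MB-2317TGP-POS) and the reporter-negative line (MDA-MB-2317TGP-NEG) were separated by 8 rounds of expansion and sorting after selection in puromycin at 3 ug/mL, and were grown in DMEM with 10% serum. Over 80% of reporter-positive cells and under 5% of reporter-negative cells carried EGFP, and each line gave 2 libraries from 1 ug of total RNA.

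Whether both libraries of a line were grown apart is not stated, and a p-value therefore reflects only how far these libraries scatter, perhaps for technical reasons. With 1 line per reporter state, reporter activity cannot be told apart from anything else that differs between them. Fewer cells with a transcript and less of it per cell cannot be told apart either. The libraries held 62539034 and 55894092 counts for reporter-positive cells, against 63034563 and 58429705 for reporter-negative cells, and Spearman correlations over genes were 0.992 within each line and 0.980 to 0.983 between the lines. Levels are given in CPM (counts per 1e6 counts of the library, with trimmed-mean scaling). The 7 MDA-MB-231 markers, among them VIM, AXL, CD44 and EGFR, summed to 3853 and 4168 CPM in reporter-positive libraries, against 5381 and 5265 CPM in reporter-negative libraries. The sum follows the most abundant of them. By edgeR at adjusted p under 0.05, 1 rose, 2 fell and 4 did neither, 42.9% changed beside 22.4% of all genes, with a median log2 fold change of -0.006. The 9 luminal markers summed to 278 and 301 CPM in reporter-positive libraries, against 365 and 376 CPM in reporter-negative libraries, mostly KRT8 and ERBB2, while CDH1 and PGR stayed under 1 CPM. Of these 9, 1 rose, 3 fell and 5 did neither by the same test, 44.4% changed beside 22.4% of all genes, with a median log2 fold change of -0.12. The luminal set was thus neither absent nor uniform in its change. The blood markers in the table summed to 6.89 and 6.60 CPM in reporter-positive libraries, against 4.68 and 5.52 CPM in reporter-negative libraries, mostly PTPRC and CD14, with CD3E near 0. The 5 smooth muscle and stroma markers summed to 19.7 and 20.2 CPM against 24.4 and 24.6 CPM in the same order of lines. Only 3 of these 5 had enough counts for the test, and 2 fell, 66.7% beside 22.4% of all genes. Of the 2 blood markers tested, 0 passed. The part of these markers in the results was not tested.

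A primary microRNA transcript is cut in the nucleus by DROSHA and DGCR8 into a hairpin, which XPO5 exports and DICER1 trims. The mature strand then guides an AGO protein to messenger RNAs that match its seed, bases 2 to 8, so microRNAs with the same seed share many targets. The counts here are of long RNA over whole gene spans: they give the level of the host transcript and not that of the mature microRNA.

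Mature sequences of 194 microRNA strands of these hosts were found in RefSeq (GRCh38.p14). The first set is shown because 6 hosts carry a microRNA with the let-7 seed, GAGGUAG, and these hosts did not move together. Sequences run 5′ to 3′ with the seed in capitals.
let-7a-5p, in an intron of MIR100HG and an exon of MIRLET7BHG: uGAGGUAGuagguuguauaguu
let-7b-5p, in an exon of MIRLET7BHG: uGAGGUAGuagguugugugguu
let-7c-5p, in an intron of MIR99AHG: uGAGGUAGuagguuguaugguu
let-7i-5p, in an intron of MIRLET7IHG: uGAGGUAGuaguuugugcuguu
miR-4458, in an exon of MIR4458HG: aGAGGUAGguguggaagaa
miR-4500, in an intron of MIR4500HG: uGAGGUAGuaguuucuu
Counted from the 5′ end, with the base of the first-named strand written first, let-7c and let-7a differ by G19A, and miR-4500, which is 17 bases long, differs from the first 17 bases of let-7a by U12G, C15G and U17A.

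MIR99AHG and MIR100HG carry paralogous clusters, and their other strands are shown because the hosts differed in their change between the lines.
miR-99a-5p, in an intron of MIR99AHG: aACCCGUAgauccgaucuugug
miR-100-5p, in an intron of MIR100HG: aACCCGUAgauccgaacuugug
miR-125b-5p, in an intron of each host: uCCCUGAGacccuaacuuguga
miR-99a and miR-100 differ by U16A outside the seed, and the mature miR-125b-5p of both hosts is identical.

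The remaining strands shown belong to hosts that passed the test in either direction.
miR-146a-5p, in an exon of MIR3142HG: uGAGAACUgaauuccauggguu
miR-503-5p, in an intron of MIR503HG: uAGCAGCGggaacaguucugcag
miR-424-5p, just outside MIR503HG, which its hairpin overlaps in part: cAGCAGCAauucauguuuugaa
miR-3171, in an intron of MIR3171HG: aGAUGUAUggaaucuguauauauc
miR-4307, in an intron of MIR4307HG: aAUGUUUUuuccuguuucc
miR-137-3p, in an exon of MIR137HG: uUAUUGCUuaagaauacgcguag
miR-29b-3p, in an exon of MIR29B2CHG: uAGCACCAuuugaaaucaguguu
miR-29c-3p, in an exon of MIR29B2CHG: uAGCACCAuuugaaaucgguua
miR-210-3p, in an intron of MIR210HG: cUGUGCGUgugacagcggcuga
miR-34a-5p, in an exon of MIR34AHG: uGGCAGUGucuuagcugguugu
miR-22-3p, in an exon of MIR22HG: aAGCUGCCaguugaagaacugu
miR-3681-3p, in an intron of MIR3681HG: aCACAGUGcuucauccacuacu
miR-646, in an intron of MIR646HG: aAGCAGCUgccucugaggc
miR-3936, in an intron of MIR3936HG: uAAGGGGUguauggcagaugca
miR-4422, in an intron of MIR4422HG: aAAAGCAUcaggaaguaccca
miR-600, in an exon of MIR600HG: aCUUACAGacaagagccuugcuc
miR-3677-3p, in an intron of MIR3677HG: cUCGUGGGcucuggccacggcc
miR-325, in an intron of MIR325HG: cCUAGUAGguguccaguaagugu
miR-29b and miR-29c share the seed AGCACCA and come from the same host.

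Together the 80 hosts took 107541 and 77123 counts in reporter-positive libraries, against 101471 and 89125 in reporter-negative libraries, or 0.172% and 0.138% against 0.161% and 0.153% of all counts. The summed share overlapped between the lines. Reporter-positive library 1 exceeded library 2 in 43 of the 49 hosts at 1 CPM or more, with a median ratio of 1.18 beside 1.07 for lincRNAs and 0.99 for protein-coding genes, against 26 of 49 and a ratio of 1.01 for library 1 over library 2 of the reporter-negative line. The part of this library in the results was not tested beyond leaving it out. A fit that leaves 1 library in a line takes its scatter from the other line only. Its p-values, here and below, do not cover the scatter of the line left with 1 library. Enough counts for the test were present in 65 hosts. The other 15 had at most 14 counts in any library and at most 35 in all, and MIR124-1HG had none; 3 counts, the limit that a count of 0 allows, correspond to 0.0472 to 0.0573 CPM.

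Among the 65 tested hosts, 10 rose and 9 fell in reporter-positive relative to reporter-negative cells (edgeR quasi-likelihood test, Benjamini-Hochberg adjusted p under 0.05 over 30952 genes). That is 29.2% of the tested hosts, beside 22.4% of all tested genes, with 15.4% higher beside 11.6% and 13.8% lower beside 10.9%. The median log2 fold change was 0.00 over the hosts and -0.00 over all genes. The 19 hosts that passed had no overlap between the libraries of the lines, which passing the test largely entails. Lack of overlap is no added support: MIR4300HG and MIR924HG, among others, had none either and did not pass. The share of all genes without overlap was not counted. Without reporter-negative library 1, 12 hosts passed, 9 higher and 3 lower. Among the tested hosts that passed, 5 rose at least 2-fold and 3 of them over 10-fold. MIR4307HG and MIR3171HG, both among these 3, lie 344 kb apart on chromosome 14. With all libraries edgeR, DESeq2 and limma-voom gave 0 tested hosts an estimate of 2-fold or more lower, whatever the p. This leaves out hosts too low to test, such as MIR1-1HG, with 4 and 2 counts in reporter-positive libraries, against 10 and 14 in reporter-negative libraries. Without reporter-positive library 1, MIR29B2CHG had a log2 fold change of -1.01. Among all genes, 2.54% rose and 1.52% fell by at least 2-fold, and the share over 10-fold was not counted. With so small a share of falls, 0 among 65 hosts is not read as a trait of the hosts. No host with a mean under 1 CPM in both lines passed, 0 of 16 by edgeR, by limma-voom and among the 5 of these with an adjusted p in DESeq2; at an unadjusted p under 0.05 there were 0 by edgeR, 0 by DESeq2 and 1 by limma-voom.

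**Figure D1:**
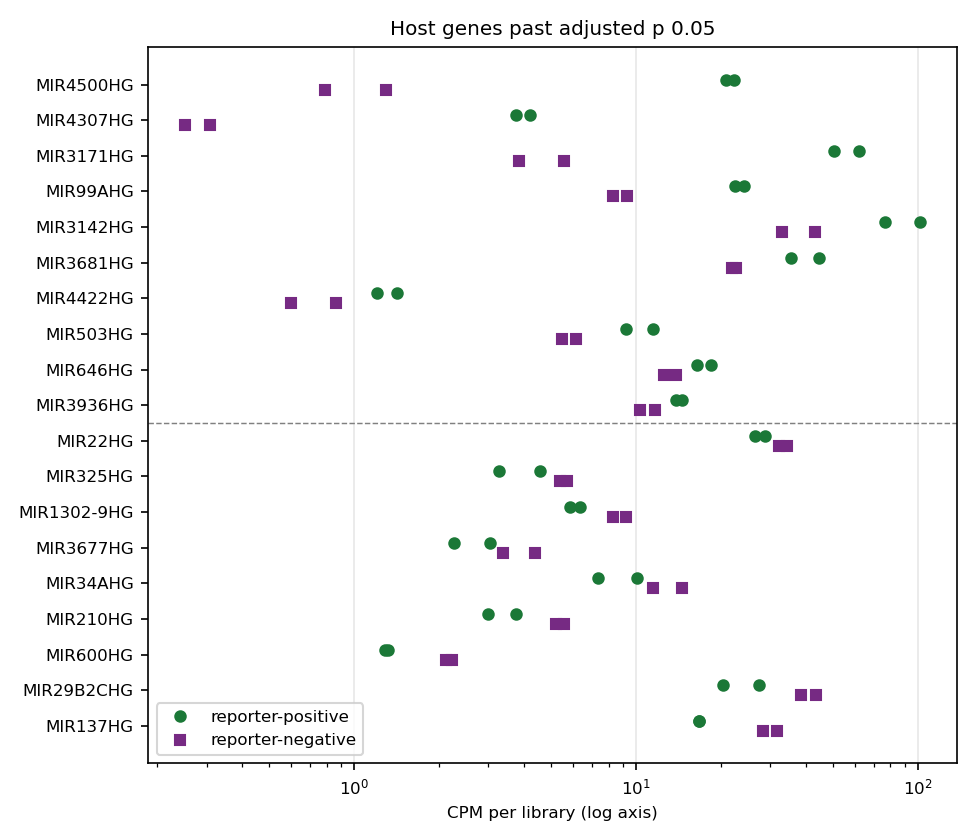
CPM in each library (log axis) of the 19 host genes that passed the test, ordered by fold change, with reporter-positive libraries as green circles and reporter-negative libraries as purple squares. Above the dashed line are the 10 that rose, led by MIR4500HG, MIR4307HG and MIR3171HG, and below it the 9 that fell. In none do the lines overlap, which passing the test largely entails.

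**Figure D2:**
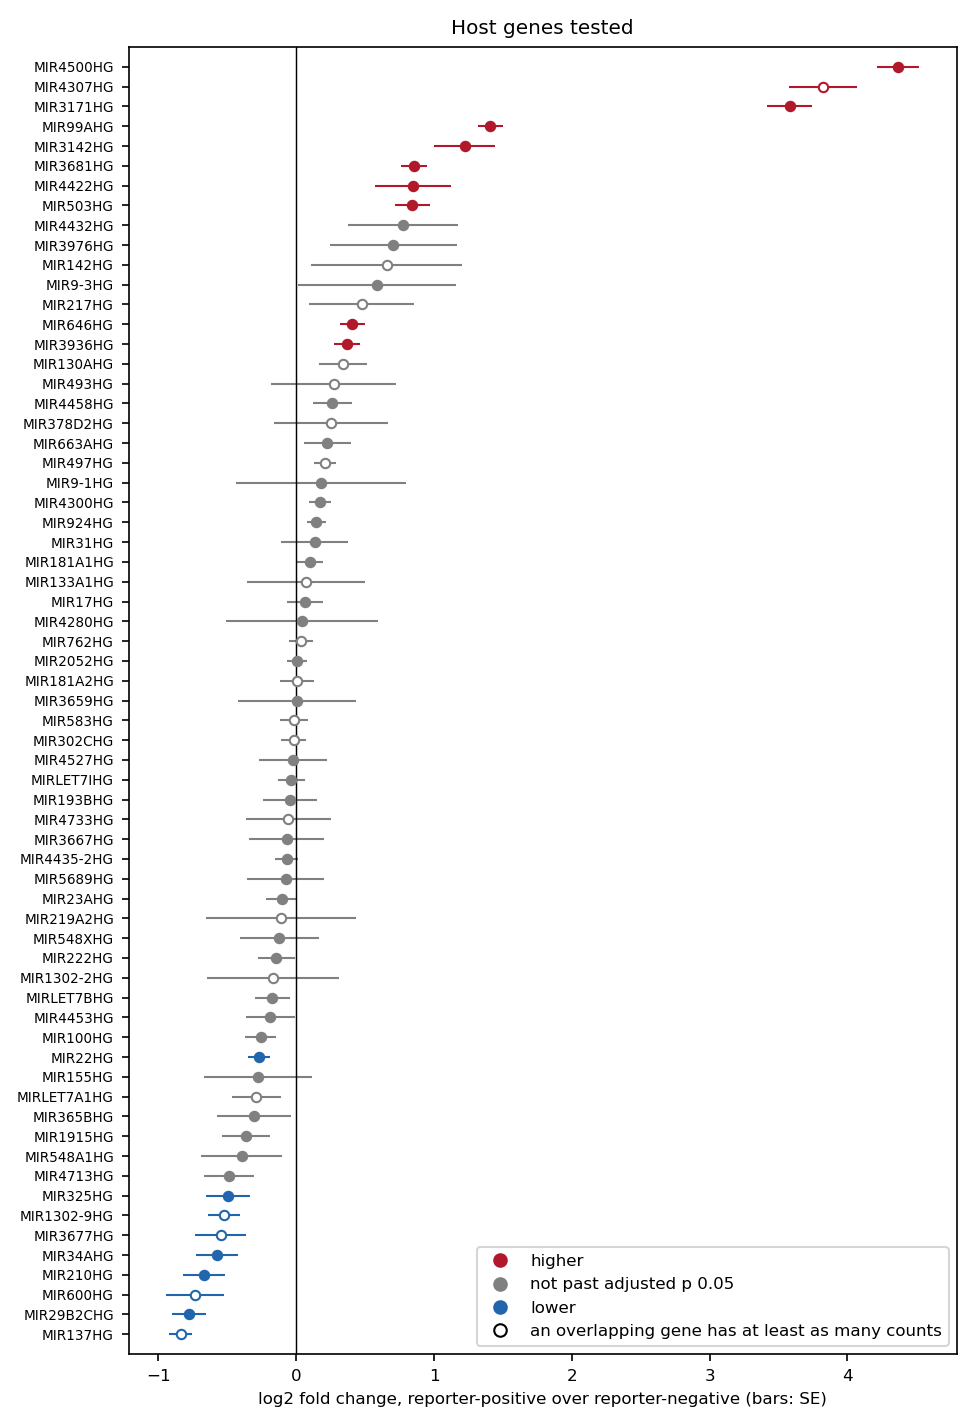
Log2 fold change of reporter-positive over reporter-negative cells, with its standard error, for the 65 tested host genes. Open circles mark the 20 hosts that overlap a gene with at least as many counts, and the 3 largest changes stand far to the right of all others.

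Hosts of let-7-seed microRNAs differed widely in their change. let-7 microRNAs repress cell-cycle and growth genes such as HMGA2, MYC and RAS family members. MIR4500HG (chr13:87427214-87671259, minus strand, GRCh38) had 22.2 and 20.9 CPM in reporter-positive libraries, against 0.787 and 1.30 CPM in reporter-negative libraries. Both reporter-positive libraries were far above both reporter-negative libraries. The log2 fold change was 4.37 ± 0.15 (SE, adjusted p = 4.5e-13), a 20.7-fold rise. The rows that overlap it in part, ENSG00000285699 and ENSG00000232636, had 14.8% and 12.5% as many counts and rose by 4.63 and 4.58 on the log2 scale.

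MIR99AHG (chr21:15928296-16645065, plus strand), a 717 kb gene whose introns hold miR-99a, let-7c and miR-125b-2, had 24.3 and 22.5 CPM in reporter-positive libraries, against 8.30 and 9.33 CPM in reporter-negative libraries. All its reporter-positive values were above all its reporter-negative values, and the rise was 2.65-fold (log2 1.41 ± 0.09, adjusted p = 4.3e-10). Its paralog MIR100HG (chr11), host of miR-100, let-7a-2 and miR-125b-1, had the highest CPM of any member: 301 and 244 in reporter-positive libraries, against 357 and 295 in reporter-negative libraries. Those libraries overlapped, and the log2 difference of -0.26 ± 0.11 did not pass (adjusted p = 0.128). Without reporter-positive library 1 the log2 difference was -0.41. MIR99AHG counts equalled 8.07% and 9.21% of MIR100HG counts in reporter-positive libraries, against 2.32% and 3.17% in reporter-negative libraries; the exact two-sided permutation p of 0.333 is the smallest that 2 libraries against 2 can give.

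MIRLET7BHG, MIRLET7IHG, MIR4458HG and MIR100HG, which also carry the let-7 seed, did not pass. MIRLET7BHG, host of let-7a-3 and let-7b, had 96.1 and 72.2 CPM in reporter-positive libraries, against 100 and 89.5 in reporter-negative libraries (log2 -0.17 ± 0.12, adjusted p = 0.406). Without reporter-positive library 1 its log2 difference was -0.39. MIRLET7IHG had 20.4 and 16.4 CPM against 19.6 and 18.2 CPM, in the same order of lines (log2 -0.03 ± 0.10, adjusted p = 0.864). MIR4458HG, at 4.70 and 5.04 CPM in reporter-positive libraries against 3.98 and 4.14 in reporter-negative libraries, had non-overlapping libraries but missed the threshold (log2 0.26 ± 0.14, adjusted p = 0.221). MIRLET7A1HG, for which no mature sequence was matched, lies inside ENSG00000269946 on the same strand, and had 3.03 and 2.27 CPM against 3.23 and 3.27 CPM (log2 -0.29 ± 0.18, adjusted p = 0.295).

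**Figure D3:**
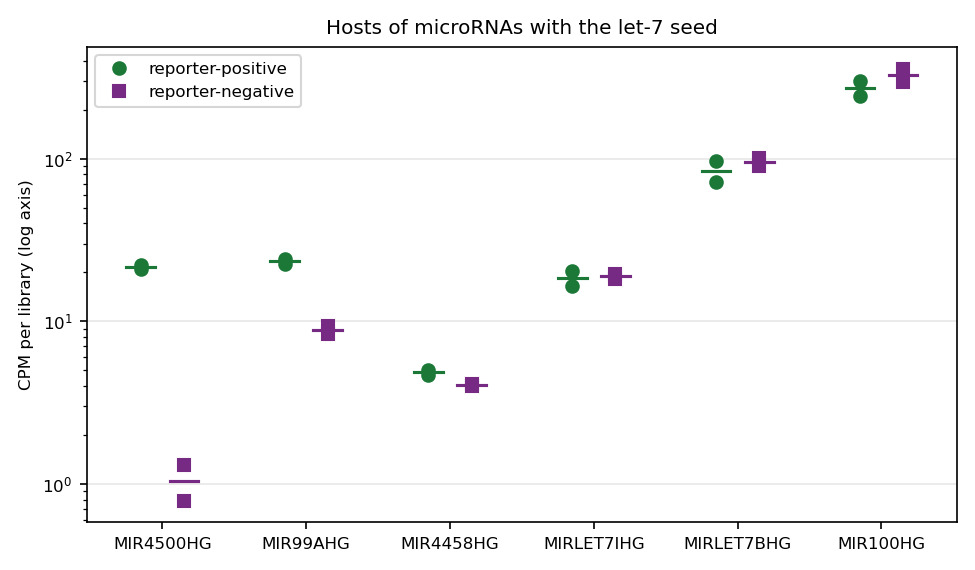
CPM in each library (log axis) of the 6 hosts of microRNAs with the let-7 seed, reporter-positive to the left as green circles and reporter-negative to the right as purple squares, with lines at the means. MIR4500HG and MIR99AHG stand apart between the lines, MIR4458HG differs little, and the other 3 overlap.

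Hosts linked to inflammatory and stress signalling came next. MIR3142HG (chr5:160438594-160487426, plus strand) carries miR-146a, a feedback inhibitor of NF-kappaB signalling that represses IRAK1 and TRAF6, in its last part. It had 102 and 76.3 CPM in reporter-positive libraries, against 43.3 and 33.1 CPM in reporter-negative libraries, a 2.33-fold rise (log2 1.22 ± 0.22, adjusted p = 0.0332). The lines did not overlap, and with no count filter the adjusted p was 0.101. The MIR146A row itself, whose span lies in an exon of the host, had 123 and 69 counts in reporter-positive libraries, against 58 and 39 in reporter-negative libraries (log2 1.09 ± 0.28, adjusted p = 0.00642). Of the 11 genes at 1 CPM or more within 500 kb, 1 rose and 3 fell, beside 19.2% higher and 13.4% lower over chromosome 5.

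MIR155HG, host of miR-155, an inflammation-linked oncogenic microRNA, was almost silent, with 25 and 17 counts in reporter-positive libraries, against 27 and 28 in reporter-negative libraries (adjusted p = 0.699). MIR22HG, a stress-responsive gene that carries miR-22 in an exon, fell slightly: 28.7 and 26.4 CPM in reporter-positive libraries, against 32.3 and 34.3 CPM in reporter-negative libraries (log2 -0.27 ± 0.08, adjusted p = 0.0147). The call was lost without reporter-negative library 1 (adjusted p = 0.0669) or 2 (adjusted p = 0.220). WDR81, on the opposite strand, partly overlaps it and has 86.9% as many counts, with a log2 difference of -0.04 that did not pass.

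MIR210HG, host of the hypoxia-induced miR-210, had 3.76 and 3.00 CPM in reporter-positive libraries, against 5.21 and 5.55 CPM in reporter-negative libraries, and fell by 0.67 ± 0.15 on the log2 scale (adjusted p = 0.00267). It stands in a gene-dense region of chromosome 11 where 28 of 52 genes at 1 CPM or more within 500 kb fell and 0 rose at the same threshold. Over the whole of chromosome 11, 12.2% of such genes fell and 24.4% rose. The strongest fall near MIR210HG was that of SIGIRR, at a log2 fold change of -2.01 ± 0.15. MIR34AHG, host of the p53-induced miR-34a, had 10.1 and 7.35 CPM in reporter-positive libraries, against 14.6 and 11.5 CPM in reporter-negative libraries (log2 -0.58 ± 0.15, adjusted p = 0.0200). LNCTAM34A on the opposite strand inside it holds 24.7% as many counts, and with them taken off the fall was 0.55 on the log2 scale (adjusted p = 0.00399). Without reporter-negative library 1 the adjusted p was 0.0772.

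MIR29B2CHG (chr1), host of miR-29b-2 and miR-29c, which repress collagen and other matrix genes, had 27.3 and 20.3 CPM in reporter-positive libraries, against 43.6 and 38.4 CPM in reporter-negative libraries. The fall was 0.78 ± 0.12 on the log2 scale (adjusted p = 0.00108), and 3 of its 5 neighbours also fell, beside 10.5% of genes at 1 CPM or more on chromosome 1. MIR503HG (chrX), whose miR-503, with the adjoining miR-424, restrains cyclins, had 11.5 and 9.22 CPM in reporter-positive libraries, against 6.13 and 5.45 CPM in reporter-negative libraries (log2 0.84 ± 0.13, adjusted p = 4.2e-05). MIR497HG, which carries miR-195 and miR-497 with the seed of miR-424, AGCAGCA, had 26.0 and 28.3 CPM against 22.6 and 24.4 CPM (log2 0.21 ± 0.08, adjusted p = 0.0710), with no overlap between lines. ENSG00000267047 on the same strand partly overlaps it and has 315% as many counts. RNASEK-C17orf49 and C17orf49, on the opposite strand, also overlap it in part, with 281% and 142% as many. Without reporter-positive library 1 the log2 difference of MIR497HG was 0.27.

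MIR17HG, the source of the oncogenic miR-17-92 cluster, had 7.18 and 5.84 CPM in reporter-positive libraries, against 6.41 and 6.11 CPM in reporter-negative libraries (adjusted p = 0.817). MIR222HG, host of miR-221 and miR-222, which repress the cell-cycle inhibitor CDKN1B, had 91.9 and 71.4 CPM in reporter-positive libraries, against 99.4 and 81.2 CPM in reporter-negative libraries (adjusted p = 0.534). MIR23AHG had 164 and 124 CPM against 161 and 150 CPM (adjusted p = 0.602). The lines overlapped in each of these. Without reporter-positive library 1 the log2 difference was -0.34 for MIR222HG and -0.32 for MIR23AHG. MIR181A1HG, whose miR-181 strands act in lymphocyte signalling, had 90.5 and 81.4 CPM in reporter-positive libraries, against 89.0 and 71.5 CPM in reporter-negative libraries, and its paralog MIR181A2HG had 9.51 and 8.11 CPM against 9.64 and 7.94 CPM (adjusted p = 0.544 and 0.985). The log2 difference of MIR181A1HG was 0.17 without reporter-positive library 2. MIR181A2HG lies inside NR6A1 on the opposite strand, which has 234% as many counts.

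Some other hosts at 5 CPM or more did not pass. MIR4435-2HG, whose span takes in the death gene BCL2L11 on the opposite strand, had 137 and 119 CPM in reporter-positive libraries, against 142 and 127 CPM in reporter-negative libraries (adjusted p = 0.635). Without reporter-positive library 1 its log2 difference was -0.17. BCL2L11 has only 5.5% as many counts as MIR4435-2HG. ENSG00000285016, on the same strand, and ENSG00000280878, on the opposite strand, partly overlap this host with 33.0% and 18.7% as many. MIR130AHG, host of miR-130a, had 12.2 and 8.21 CPM against 8.85 and 7.33 CPM (log2 0.34 ± 0.17, adjusted p = 0.214). Its log2 difference was 0.58 without reporter-positive library 2 and 0.49 without reporter-negative library 1. CLP1, an RNA kinase gene that partly overlaps MIR130AHG with 122% as many counts, rose by 0.45. MIR583HG had 23.4 and 20.4 CPM against 24.4 and 19.9 CPM, and MIR302CHG, host of the pluripotency cluster miR-302 within the gene LARP7, had 16.1 and 15.1 CPM against 15.3 and 16.4 CPM, each with reporter-positive libraries first. LARP7, on the opposite strand, shares exon stretches with MIR302CHG and has 200% as many counts, so reads there cannot be told apart. The miR-302 and miR-367 hairpin rows had 0 to 5 counts in any library. MIR583HG lies inside ENSG00000251314 on the same strand, which has 221% as many counts.

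MIR137HG (chr1), host of miR-137, a regulator of neuronal differentiation, had 16.7 and 16.8 CPM in reporter-positive libraries, against 31.7 and 28.1 CPM in reporter-negative libraries. It had the largest fall among the members, 0.84 ± 0.08 on the log2 scale (adjusted p = 2.1e-07). DPYD, the uracil-degrading enzyme gene, partly overlaps it on the same strand with 519% as many counts and fell by 0.50 (adjusted p = 2.3e-05), so reads from the shared stretch cannot be told apart. MIR9-1HG and MIR9-3HG had 5 to 16 counts in any library, and MIR124-2HG 1 to 3. MIR200CHG and MIR205HG, hosts of microRNAs that hold the epithelial state by repressing ZEB1 and ZEB2, had 1 and 0 counts each in reporter-positive libraries, against 2 and 3 for MIR200CHG and 2 and 4 for MIR205HG in reporter-negative libraries. No difference was detectable at this depth.

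A pair of little-studied hosts on chromosome 14 rose with the long non-coding RNA named in the study's title. MIR3171HG (chr14:27258717-27845286, minus strand) had 61.8 and 50.6 CPM in reporter-positive libraries, against 3.86 and 5.55 CPM in reporter-negative libraries, an 11.97-fold rise (log2 3.58 ± 0.17, adjusted p = 1.1e-06). LINC00645 lies wholly inside it on the opposite strand, at chr14:27612588-27639636, and the miR-3171 hairpin lies inside the LINC00645 span, at chr14:27633205-27633278. LINC00645 had 336 and 208 counts in reporter-positive libraries, against 11 and 15 in reporter-negative libraries, and these are 8.0% of the MIR3171HG counts, so most counts of the host come from outside it. LINC00645 rose by 4.47 ± 0.27 on the log2 scale (adjusted p = 1.1e-10).

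MIR4307HG, with a gap of 344 kb to MIR3171HG, had 4.22 and 3.76 CPM in reporter-positive libraries, against 0.252 and 0.309 CPM in reporter-negative libraries (log2 3.82 ± 0.25, adjusted p = 3.0e-10). It lies inside ENSG00000258081 on the same strand, which rose by 3.69 ± 0.12. Counts per kb in MIR4307HG were 1.19 times those in the rest of that gene in reporter-positive cells and 1.06 times in reporter-negative cells, so its counts cannot be told apart from those of the gene around it. NOVA1-DT, on the far side, rose by 0.52 (adjusted p = 0.0442), and BNIP3P1, 419 kb beyond MIR3171HG, had a log2 difference of 0.15 that did not pass (adjusted p = 0.151).

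Other hosts that rose did so by less. MIR3681HG (chr2) overlaps no listed gene and had 44.5 and 35.6 CPM in reporter-positive libraries, against 22.6 and 21.9 CPM in reporter-negative libraries (log2 0.85 ± 0.09, adjusted p = 3.1e-06). MIR646HG had 18.5 and 16.5 CPM against 12.6 and 13.8 CPM (log2 0.41 ± 0.09, adjusted p = 0.00258), and MIR3936HG 14.5 and 13.9 CPM against 11.7 and 10.3 CPM (log2 0.37 ± 0.10, adjusted p = 0.00761), again with reporter-positive libraries first and no overlap. Scaling by total counts ended both calls (adjusted p = 0.0599 and 0.0735), as did leaving out reporter-negative library 1 for MIR646HG (adjusted p = 0.0717) and library 2 for MIR3936HG (adjusted p = 0.200). MIR3936HG partly overlaps SLC22A4, a carnitine and ergothioneine transporter gene on the opposite strand with 94.4% as many counts, which rose by 0.56. MIR4422HG had 89 and 63 counts in reporter-positive libraries, against 38 and 53 in reporter-negative libraries (log2 0.85 ± 0.28, adjusted p = 0.0321). It missed the threshold in DESeq2 (adjusted p = 0.130), with total-count scaling (0.0907), with the pseudogene GYG1P3 taken off (0.119), and without reporter-positive library 1 (0.122) or reporter-negative library 1 (0.281).

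The remaining hosts that fell were low or shared. MIR600HG had 1.29 and 1.32 CPM in reporter-positive libraries, against 2.22 and 2.12 CPM in reporter-negative libraries (log2 -0.73 ± 0.21, adjusted p = 0.0139). STRBP, on the same strand with 698% as many counts, fell by 0.89. MIR1302-9HG, inside WASHC1 on the opposite strand, had 6.32 and 5.82 CPM against 9.21 and 8.27 CPM (log2 -0.52 ± 0.12, adjusted p = 0.00263), and WASHC1, a subunit of the actin-nucleating WASH complex, fell by 0.36. WASHC1 shares exon stretches with MIR1302-9HG and has 1521% as many counts. Counts per kb in MIR1302-9HG were 1.13 times those in the rest of WASHC1 in reporter-positive cells and 1.29 times in reporter-negative cells. The counts of MIR1302-9HG thus cannot be told apart from those of WASHC1. MIR3677HG had 3.03 and 2.27 CPM against 4.39 and 3.39 CPM (log2 -0.55 ± 0.18, adjusted p = 0.0373), and MIR325HG 4.55 and 3.26 CPM against 5.69 and 5.39 CPM (log2 -0.49 ± 0.16, adjusted p = 0.0275), each with reporter-positive libraries first. RNPS1, on the opposite strand, partly overlaps MIR3677HG with 1440% as many counts. It had 2973 and 2507 counts in reporter-positive libraries, against 3012 and 2969 in reporter-negative libraries.

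Several of these falls rested on a single library or tool. Without reporter-negative library 1 the adjusted p was 0.0929 for MIR600HG, 0.0823 for MIR1302-9HG, 0.425 for MIR3677HG and 0.147 for MIR325HG. Without reporter-positive library 2 it was 0.150 for MIR3677HG and 0.199 for MIR325HG, and without reporter-negative library 2 it was 0.0550 for MIR325HG. DESeq2 gave 0.0694 for MIR600HG, 0.103 for MIR3677HG and 0.0742 for MIR325HG. With the microRNA genes inside it taken off, MIR3677HG had an adjusted p of 0.0813.

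Overlapping genes bear on most host rows: 57 of 80 overlap another listed gene, and of 109 genes inside a host, 27 of them on the opposite strand, 0 had more counts than the host in any library. Counts of a gene inside a host, on either strand, thus stand in the row of the host as well. An overlapping gene has at least 10% as many counts in 37 tested hosts, 11 of which passed, and at least as many counts in 20. Only 2 of the 19 that passed, MIR3681HG and MIR325HG, overlap no listed gene. For some hosts the row mostly held counts of another gene. MIR4300HG had 151 and 170 CPM in reporter-positive libraries, against 137 and 148 CPM in reporter-negative libraries (adjusted p = 0.137), and the ribosomal pseudogene RPS28P7 held 95.3% of its counts. Without reporter-positive library 1 the log2 difference of this host was 0.26. MIR2052HG had 29.9 and 28.5 CPM against 28.8 and 29.4 CPM, and the pseudogene PCBP2P2 held 94.0% of its counts. MIR762HG had 16.4 and 15.7 CPM against 15.8 and 15.6 CPM, and taking off all genes inside it left 1.39% of its counts.

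MIR924HG (chr18) was the host in which taking off an inner gene brought the value past the threshold. As deposited it had 73.5 and 72.9 CPM in reporter-positive libraries, against 66.6 and 65.9 CPM in reporter-negative libraries (log2 0.14 ± 0.07, adjusted p = 0.157). The ribosomal pseudogene RPL7AP66 held 52.2% of those counts and fell by 0.25 (adjusted p = 0.0258). With the inner genes taken off, 41.3 and 37.4 CPM were left in reporter-positive libraries, against 28.1 and 24.5 CPM in reporter-negative libraries. The rest of the span rose by 0.58 ± 0.08 on the log2 scale (adjusted p = 2.6e-05).

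Its RefSeq promoter, 250 bases before to 50 after the start, is shown because MIR924HG is 1 of the 3 tested hosts whose window holds CTTTGAA or CTTTGAT, letters that TCF proteins prefer, searched on both strands. The window is chr18:39751946-39752245 on the minus strand (GRCh38.p14), and the match, in capitals, begins at base -246 from the RefSeq start. The counted row of MIR924HG has the longer GENCODE span, chr18:39206924-39800318 on the same strand. The window thus lies inside the counted span and not at its start, and letters at that start were not searched.
MIR924HG promoter: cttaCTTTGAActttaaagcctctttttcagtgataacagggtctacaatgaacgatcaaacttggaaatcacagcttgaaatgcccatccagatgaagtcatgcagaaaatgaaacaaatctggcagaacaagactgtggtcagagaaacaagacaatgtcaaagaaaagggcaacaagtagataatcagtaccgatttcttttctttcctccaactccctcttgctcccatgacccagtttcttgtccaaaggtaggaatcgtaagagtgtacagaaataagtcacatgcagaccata
The match describes letters and does not show binding. These letters were found in 5 of the 61 hosts with a promoter in the table, in 0 of the 8 that rose as deposited and 0 of the 9 that fell, beside 6.98% of 27305 promoters; the other tested hosts that hold them, MIR100HG and MIR4432HG, did not pass.

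Taking off inner genes worked the other way in MIR4713HG: its log2 difference of -0.49 (adjusted p = 0.0645) shrank to -0.18 (adjusted p = 0.614) once TNFAIP8L3, which fell by 1.55, was taken off.

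**Figure D4:**
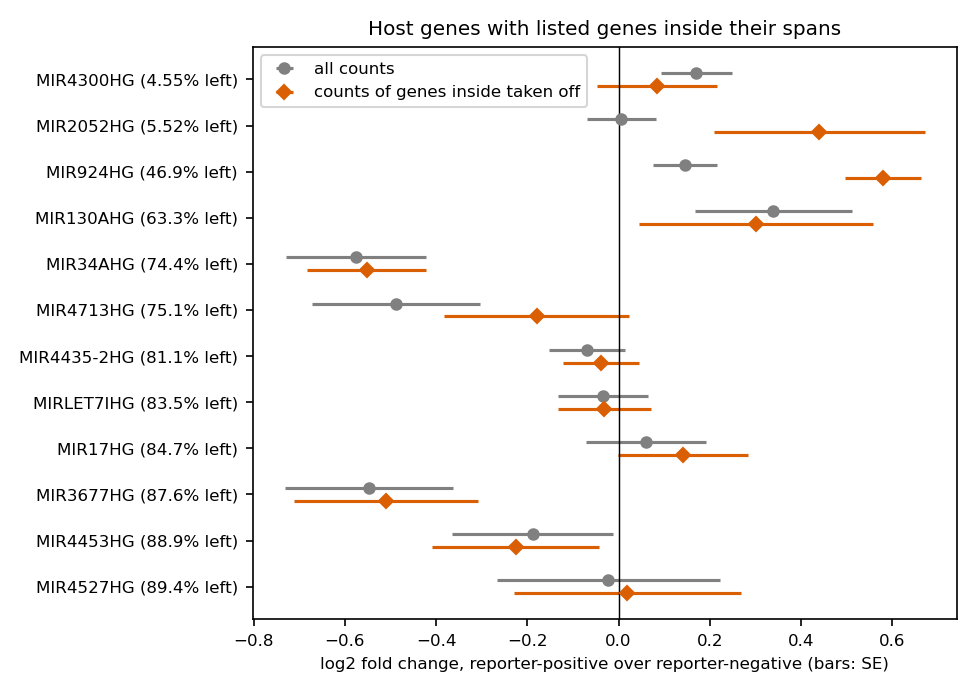
Log2 fold change of reporter-positive over reporter-negative cells, with its standard error, for host genes in which genes inside the span hold at least 10% of the counts and at least 1 CPM is left, before (grey circles) and after (orange diamonds) those counts are taken off. The share of counts left is given beside each name. MIR924HG moves from 0.14 to 0.58 and MIR4713HG from -0.49 to -0.18, while MIR34AHG and MIR3677HG hardly move.

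Neighbouring genes, within 500 kb and at 1 CPM or more, moved with some of the larger changes and not with others. MIR4500HG rose with SLITRK5, a neuronal transmembrane protein gene 1.36 kb away (log2 4.00 ± 0.18), with LINC00397 (4.45 ± 0.45) and with ENSG00000272046 (5.95 ± 0.34), and LINC00373, 472 kb away, did not pass (adjusted p = 0.147). MIR99AHG stood alone among its neighbours: USP25, the nearest, had 41.2 ± 1.28 CPM in reporter-positive cells and 41.0 ± 0.556 CPM in reporter-negative cells (SD; log2 0.01, adjusted p = 0.970), and ENSG00000229425 did not pass either (adjusted p = 0.889). None of the 6 neighbours of MIR3681HG passed, although GREB1 had a log2 difference of 0.98 with a wide error (adjusted p = 0.220). Around MIR503HG, 8 of 10 neighbours rose, among them HPRT1, the purine salvage enzyme gene (log2 0.92 ± 0.12), and PLAC1 (0.83 ± 0.19). On the whole of chromosome X, 40.4% of genes at 1 CPM or more rose.

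**Figure D5:**
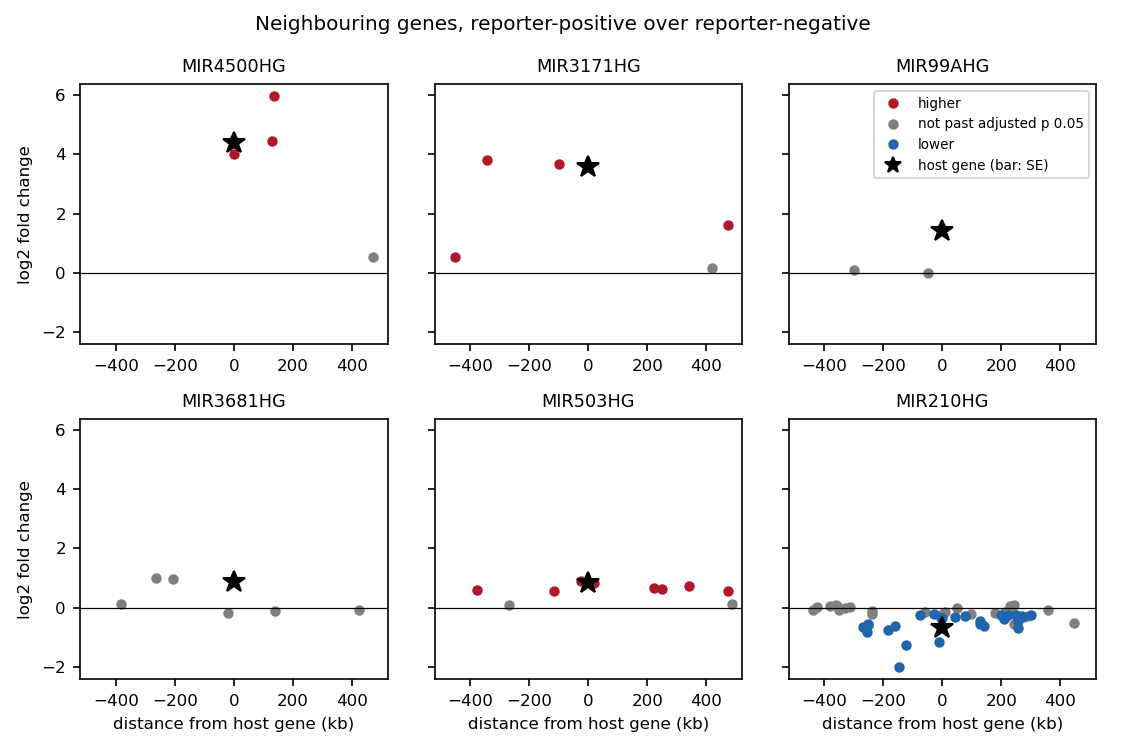
Log2 fold change of reporter-positive over reporter-negative cells for 6 hosts (black stars, bar: standard error) and for the genes within 500 kb at 1 CPM or more, by distance in kb. The neighbours of MIR99AHG and MIR3681HG did not pass, and for MIR3681HG some of these estimates are as large as its own, MIR4500HG and MIR3171HG rise with theirs, and MIR503HG and MIR210HG lie among neighbours that moved the same way.

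Whole chromosomes differed between the lines too, a comparison chosen after the data were seen. Of genes at 1 CPM or more, 40.4% of 736 on chromosome X rose, with a median log2 fold change of 0.22, while 43.7% of 900 on chromosome 9 and 41.2% of 534 on chromosome 20 fell, with medians of -0.27 and -0.20. The next highest shares were 25.4% higher, on chromosome 18, and 23.2% lower, on chromosome 6. Over all chromosomes, a fit limited to genes at 1 CPM or more in 2 libraries had 3476 higher and 3349 lower of 22016. MIR503HG rose on X, and MIR600HG and MIR1302-9HG fell on 9, as many genes there did, with larger estimates than those medians. The MIR1302-9 row inside MIR1302-9HG and the MIR1302-2 row on chromosome 1 had the same counts, 3 and 3 in reporter-positive libraries, against 0 and 2 in reporter-negative libraries. Whether reads of MIR1302-9HG are particular to chromosome 9 was not tested. MIR325HG fell on X, and MIR646HG rose on chromosome 20, against the median of their chromosomes; SYCP2 and FAM217B, neighbours of MIR646HG, fell by 0.78 and 0.40. The part of these chromosome-wide differences in the host results was not tested.

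Few genes that make and use microRNAs passed. Of 37 tested processing and silencing genes, 2 rose and 3 fell, 13.5% beside 22.4% of all genes, and 32 did not pass. DICER1, which cuts the hairpin loop, had 73.6 and 81.6 CPM in reporter-positive libraries, against 67.0 and 63.9 CPM in reporter-negative libraries (log2 0.25 ± 0.07, adjusted p = 0.0204). PAN3, a deadenylase subunit, was the other that rose. XPO5, the exporter of hairpins, had 65.5 and 68.6 CPM against 79.4 and 80.9 CPM (log2 -0.26 ± 0.07, adjusted p = 0.0110), and the microprocessor helicase DDX17 (log2 -0.28) and TUT7, which uridylates let-7 precursors (log2 -0.35, adjusted p = 0.000879), also fell. With total-count scaling 0 rose and 4 fell. The count rested on the libraries: 14 passed without reporter-positive library 1, 8 without reporter-positive library 2, 1 without reporter-negative library 2 and 0 without reporter-negative library 1, where 5 had an unadjusted p under 0.05. DROSHA, DGCR8 and AGO1 to AGO4 did not pass, with log2 differences of -0.15 to 0.03. LIN28B, which blocks let-7 maturation, had 0.971 and 0.916 CPM in reporter-positive libraries, against 0.677 and 0.684 CPM in reporter-negative libraries (adjusted p = 0.282), and LIN28A was too low to test.

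MicroRNA-hosting genes with other names form a second list. Its genes were picked with earlier results of these data known, so the share of them that passed is no background. Of 45 tested, 12 rose and 4 fell, 35.6% beside 22.4% of all genes, with a median log2 fold change of 0.10; with total-count scaling 7 rose and 6 fell. SLIT2, the axon guidance ligand that hosts miR-218-1, had 107 and 107 CPM in reporter-positive libraries, against 38.6 and 36.6 CPM in reporter-negative libraries (2.84-fold, adjusted p = 3.05e-12). IGF2, the growth factor that hosts miR-483, was low at 2.02 and 1.77 CPM against 0.441 and 0.456 CPM (log2 2.08 ± 0.27, adjusted p = 6.3e-06). SREBF1, the lipid synthesis regulator that hosts miR-33b, rose by 0.56, and HUWE1 and CHM, both on chromosome X, rose by 0.53 and 0.59. TLN2, which hosts miR-190a, fell by 0.70.

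Per kb of gene span, the hosts with the highest levels were not those with the largest changes. MIR23AHG had 7.58 CPM per kb in reporter-positive cells and 8.16 CPM per kb in reporter-negative cells, followed by MIR497HG at 7.07 and 6.12 and MIR22HG at 4.85 and 5.86. Each of these hosts shares part of its span with other genes, whose reads cannot be told apart there. MIR503HG had 3.14 and 1.76 CPM per kb, and MIR3142HG 1.83 and 0.783. The long hosts that rose most were sparse along their spans: MIR4500HG had 0.0884 CPM per kb in reporter-positive cells and 0.00428 in reporter-negative cells, and MIR3171HG had 0.0959 and 0.00802.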

How the data were processed

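Raw counts per Ensembl gene were deposited by the authors for 2 reporter-positive and 2 reporter-negative libraries, made with an NEB Ultra II kit per the labels' protocols. HISAT2, Bowtie2, DESeq2 and the build hg19 are named in the submitters' processing notes; no source used here names the read counter, its annotation or its use of strand. All 43714 IDs are in GENCODE 29 (GRCh38), which gave spans, overlaps and coordinates; the counts themselves carry no coordinates, and 43289 IDs had a current symbol. MicroRNAs were placed by GENCODE 29 and RefSeq. Columns were matched to samples by name. The members and gene lists were chosen with earlier results of these data known.

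The counts went into edgeR 4.0.16 under R 4.3.3 (quasi-likelihood, robust, trimmed mean of M values scaling, at least 10 counts by filterByExpr) over all genes, with Benjamini-Hochberg adjustment. CPM values use the same scaling; counts and floors carry counting error only. Members that passed and members at 5 CPM or more in either line were named with values in every library. Also named were members whose value rests on an overlapping gene, up to 6 list genes with the smallest adjusted p, and DROSHA, DGCR8, XPO5, DICER1 and AGO2. Of the list genes, only DICER1, XPO5, LIN28B, SLIT2 and IGF2 have their library values printed. Neighbours, the LIN28 genes and other Argonautes were named after their values were seen. Alternatives were DESeq2 1.42.0, limma-voom (limma 3.58.1), other scalings and filters, a replicate block, and each library left out. On simulated data over 30353 genes, 36 of 67 genes changed by 1.5-fold, 52 of 67 changed by 2-fold and 65 of 66 changed by 4-fold were recovered, and 23 unchanged genes were called.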

Additional observations from a re-analysis of the deposited data

How the results depend on the processing

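No member that passed turned round in any alternative run; 9 of 19 passed in every one (MIR137HG, MIR210HG, MIR29B2CHG, MIR3171HG, MIR3681HG, MIR4307HG, MIR4500HG, MIR503HG and MIR99AHG, setting aside the fit limited to genes without an overlapping gene, which can hold only MIR3681HG and MIR325HG), and 12 in all but those that leave out a library. Leaving out 1 library at a time gave 12 to 27 members called and 4358 to 9161 genes in all, and the lowest values came without reporter-negative library 1, where 9 members rose and 3 fell; the lone library is then assumed to vary like the others. The processing and silencing genes gave 0 to 14 calls; the 0, by edgeR without reporter-negative library 1, had 5 at an unadjusted p under 0.05, and DESeq2 and limma-voom gave 5 with all libraries. The other-named hosts gave 11 to 23. Restricting to genes without an overlapping gene left 2 of 10 members called and 2204 genes, since fewer genes enter. DESeq2 called 15 of 54 members with an adjusted p. Total-count scaling gave 7 members higher and 9 lower, and 36.0% of calls among all genes higher beside 51.5%. With the replicate number as a block, 23 members (12 higher, 11 lower) and 8226 genes passed, the added members being MIR100HG (adjusted p = 0.0168), MIR130AHG (0.0113), MIR497HG (0.0299) and MIR4713HG (0.0487); the labels share only a number, and deviations of same-numbered libraries had a correlation of -0.03 over 30952 genes. Members under 1 CPM are limited by depth.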
